A study of Danio rerio with 1109 samples.

Results

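The genes described here are the 7 transcription regulators *pax1a*, *pax1b*, *pax9*, *nkx3.2*, *twist1a*, *twist1b* and *meox1*, which are known for their roles in the sclerotome, and they were chosen by name from the 32057 genes of the raw count table. The table carries Ensembl identifiers, of which 4 were matched by symbol, namely *pax9* (ENSDARG00000053829), *twist1a* (ENSDARG00000030402), *twist1b* (ENSDARG00000076010) and *meox1* (ENSDARG00000007891), and 1 through a synonym, *nkx3.2* (ENSDARG00000037639). Another 2 identifiers are both named PAX1 by the name table, which does not say which of them is *pax1a* and which *pax1b*. They are given here as PAX1-I (ENSDARG00000008203) and PAX1-II (ENSDARG00000073814), so that 7 identifiers were analysed.

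The cells came from trunks of zebrafish embryos at 48 hours post fertilization (hpf), and 1109 of them, each a sample of its own, were sequenced with Smart-seq2 on 3 plates. Vegfc plate 1 (33.1% of the cells) and vegfc plate 2 (33.99%) came from the line *vegfc:Gal4FF;UASGFP; kdrl:mCherry*, and the pdgfra plate (32.9%) from the line *pdgfra:mCit*. All embryos carried transgenic reporters and none carried an engineered loss of a gene by the labels. Cells were sorted by fluorescence from pooled, partly dissociated trunks, a procedure that the study's methods describe as favouring cells near the surface. The labels name neither the gate nor the animal of a cell, so that a plate counts as 1 sample, no p-value was computed, and the *pdgfra* line and its plate cannot be told apart.

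The sclerotome is a compartment of the somite, which in amniotes is ventral. In amniotes and zebrafish it is induced by Hedgehog signals from the notochord and floor plate, and its cells migrate to form axial skeleton, tendon and the connective tissue fibroblasts of the trunk. Pax1 and Pax9 are paired box factors that mark it and, in mouse, act together upstream of the homeobox factor Nkx3.2 in cartilage formation, while Twist1 factors are basic helix-loop-helix regulators of mesenchyme and Meox1 is a homeobox factor of the whole somite that is needed for sclerotome patterning in mouse.

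Kinds of cells were gated by marker genes, a marker or member being called found in a cell at 20 or more raw counts. A fibroblast had 3 or more of *pdgfra*, *col1a1a*, *lum*, *dcn*, *col1a2* and *col5a1*, including 1 of *pdgfra*, *lum* and *dcn*, and fell in no endothelial, myeloid, neural, epithelial, pigment, hypochord or myogenic gate. This gave 611 fibroblasts, which made up 34.6%, 46.9% and 84.1% of the cells of vegfc plate 1, vegfc plate 2 and the pdgfra plate, the order in which all values by plate are listed below. The gates were loose, since abundant transcripts were found at low counts in most cells: on vegfc plate 1 *col1a1a* reached 20 counts in 100% of cells, and in the myeloid gate 55.7% of cells also held 3 or more fibroblast markers. A second set of gates, chosen after this was seen and called relative gates here, also asked each marker other than *en1a* and *tnmd* for 10% of the 99th percentile of its level over all cells. Median gene counts per cell were 301980, 315212 and 279923, with a range of 50045 to 782140 over all cells. Levels are counts summed over the cells of a kind in a plate, in counts per 1000000 gene counts (CPM), and intervals in brackets are exact 95% intervals that cover counting error only. No length was available, so that levels are compared within a gene and not between genes.

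Almost all fibroblasts expressed at least 1 of the regulators, but the 2 groups of genes behaved differently. *twist1a*, *meox1* and *twist1b* were widespread, while *pax9*, *nkx3.2* and PAX1 were found in small fractions of cells, in which their counts were high. Of 611 fibroblasts, 4.42% had none of the 7 identifiers, 21.8% had 1, 38.5% had 2, 30.1% had 3, and 24, 4 and 4 cells had 4, 5 and 6, so that 95.6% had 1 or more.

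*pax9* was found in 15, 31 and 48 fibroblasts, which is 11.8% (6.76 to 18.7), 17.5% (12.2 to 23.9) and 15.6% (11.8 to 20.2), and its summed level was 57.7, 99.1 and 101.6 CPM. Cells either had a high count or nearly none: of 611 fibroblasts, 51.1% had no *pax9* count, 33.2% had 1 to 9, 2 cells had 10 to 19 and 94 had 20 or more, with 83 of these at 50 or more. In cells with 20 or more counts the median level was 333.2, 367.5 and 584.8 CPM. The share of *pax9* fibroblasts therefore depended little on the threshold between 10 and 50 counts, at 15.7%, 15.4% and 13.6% for 10, 20 and 50.

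PAX1-I was rarer, being found in 3, 16 and 10 fibroblasts at summed levels of 17.7 CPM (16.4 to 19.2), 43.1 CPM (41.3 to 44.9) and 21.7 CPM (20.8 to 22.7). Of its 29 positive fibroblasts 28 had 50 counts or more, and the highest held 402. A single cell supplied 43.4% of its fibroblast counts in vegfc plate 1. PAX1-II was found in 2, 4 and 0 fibroblasts, with levels of 5.48, 13.5 and 0.173 CPM, and the highest count in the pdgfra plate was 2. Both PAX1 transcripts thus came from few cells, and their ratios below rest on these.

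*nkx3.2* was found in 14, 16 and 10 fibroblasts. Its level was 59.1 CPM (56.6 to 61.7), 52.7 CPM (50.8 to 54.7) and 16.4 CPM (15.6 to 17.3), the vegfc plates lying above the pdgfra plate. Its counts were also split, with 19.1% of fibroblasts at 1 to 9 counts, 2 cells at 10 to 19 and 40 at 20 or more.

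*twist1a* was found in 68.5%, 70.6% and 84.04% of fibroblasts at levels of 620, 716 and 771 CPM. Its paralogue *twist1b* was found in 50.4%, 51.98% and 45.6% of the same cells at 212.9, 279.8 and 165.8 CPM. The first had a similar level on all plates, while the second was lower on the pdgfra plate than on either vegfc plate. *meox1* was found in 57.5%, 46.3% and 66.8% of fibroblasts at 753, 486 and 757 CPM, with vegfc plate 2 the lowest.

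Low counts of the abundant members occurred in every kind of cell. On vegfc plate 1 and on the pdgfra plate 0 fibroblasts lacked a *meox1* count, and counts of 1 or more were also seen in 41 of 42, 25 of 33 and 11 of 11 myeloid cells of the relative gates, a blood lineage that serves as background. At 20 counts it was found in 3 of those 86 myeloid cells (3.49%), *twist1a* in 2, *twist1b* in 1, and *pax9* and *nkx3.2* in 0, which allows a share of up to 3.49%. Under the same gates *meox1* was found in 64.2% of fibroblasts, *twist1a* in 78.5%, *twist1b* in 52.3%, *pax9* in 17.5% and *nkx3.2* in 6.6%, at a median depth of 270834 gene counts in fibroblasts and 361151 in myeloid cells. The looser myeloid gate at 20 counts, in which many cells also held fibroblast markers, had *meox1* in 24.5%, *twist1a* in 30.7% and *twist1b* in 21.7% of cells. *pax9* was found there in 9.49%, 2.04% and 19.2% of cells by plate, beside 11.8%, 17.5% and 15.6% of fibroblasts. Its share was thus higher in fibroblasts on the vegfc plates and lower on the pdgfra plate. Since 55.7% of the cells of this looser gate held 3 or more fibroblast markers, they cannot serve as a clean background.

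**Figure D1:**
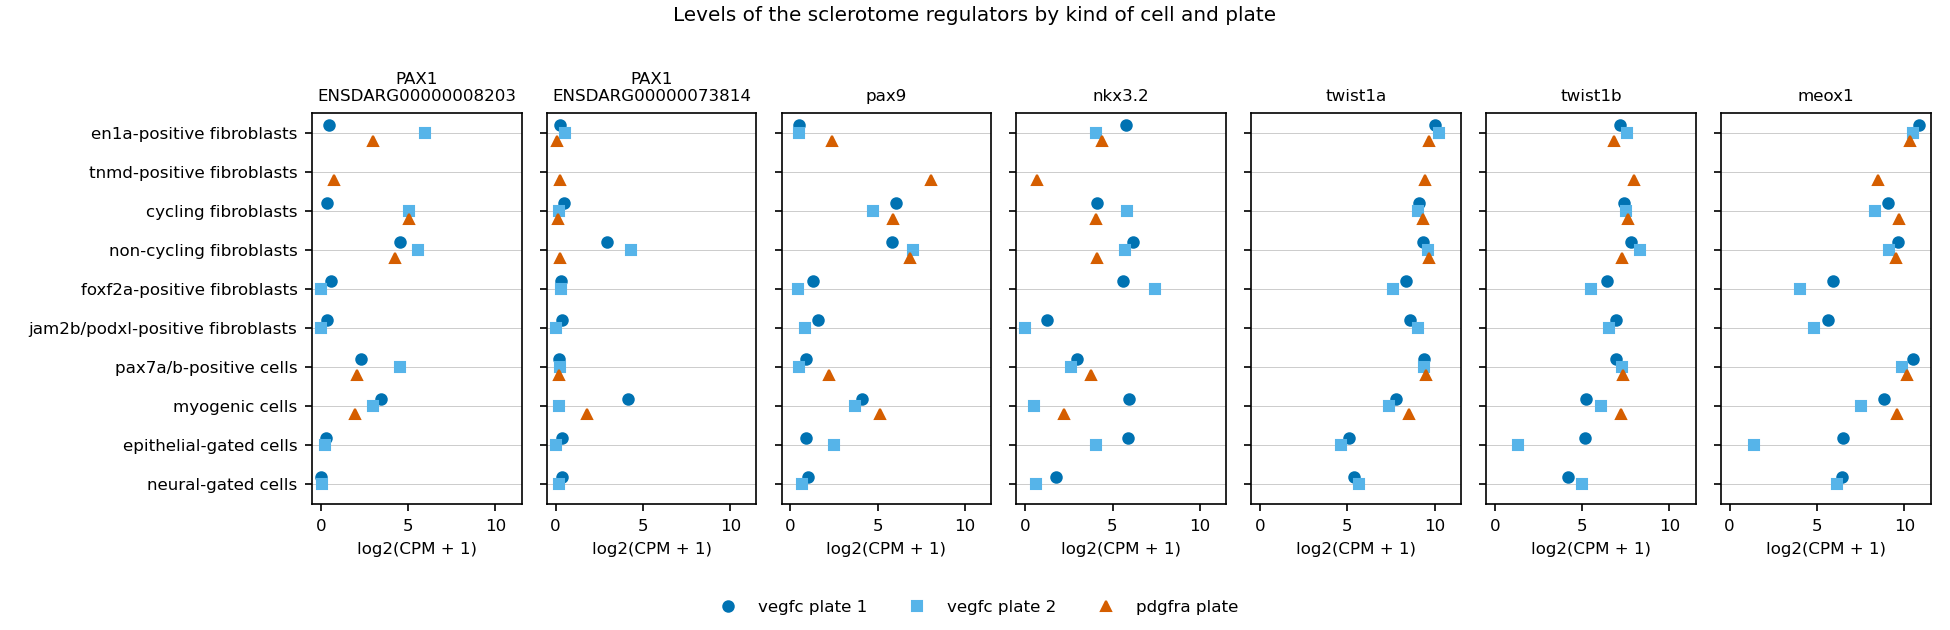
Summed level of each of the 7 identifiers as log2(CPM + 1) on the horizontal axis, by kind of cell (rows) and plate (circles for vegfc plate 1, squares for vegfc plate 2, triangles for the pdgfra plate), for kinds with 10 or more cells in a plate. *pax9* sits near 0 in *en1a*-positive fibroblasts of both vegfc plates, at 0.405 and 0.437 CPM, where *meox1* has 1800 and 1441 CPM.

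The question of where the members are expressed was first asked of fibroblasts against all other cells. *twist1a* was higher in fibroblasts on every plate, at 620, 716 and 771 CPM against 245.7, 154.3 and 404 CPM, with log2 ratios of (CPM + 1) of 1.33, 2.21 and 0.93. *pax9* had 57.7, 99.1 and 101.6 CPM against 26.95, 4.01 and 76.9 CPM, *twist1b* had log2 ratios of 1.45, 2.5 and 0.30, and *meox1* of 1.28, 1.5 and 0.33. The direction was shared by the 3 plates for these 4 genes, and the pdgfra plate had the smallest ratio in each. On that plate the non-fibroblast side held only 58 cells. The gate genes *col1a1a* and *dcn* reached 20 counts in 100% and 97.5% of all cells of that plate. Their part in the smaller ratios was not tested. A gene was called when its log2 ratio lay beyond 1 the same way in every plate with a ratio, and 0 of the 7 identifiers were called, against 0.971% of 18529 genes called higher and 8.7% called lower. Without the pdgfra plate 5 were called higher, all but *nkx3.2* and PAX1-II, and with the relative gates *pax9* and PAX1-II were, so that the count rests on the plates and the gates. The share of all genes called also changed with these settings. It is given in the last section, for runs without single plates only as a range. *nkx3.2* had ratios of 0.42, 1.66 and -0.78 and PAX1-I of 1.54, 4.2 and -0.43, with opposite signs on the pdgfra plate, where 1 cell with 380 counts supplied 71.4% of the PAX1-I counts outside fibroblasts.

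A sharp division among fibroblasts followed *en1a*, an engrailed homeobox gene (ENSDARG00000014321), which was found in 42, 56 and 76 of them, or 28.5% of all. *pax9* was all but absent from these cells and *meox1* was concentrated in them. *pax9* was found in 0 *en1a*-positive fibroblasts, which over the plates allows a share of up to 1.72%, with highest counts of 1, 2 and 5 on the 3 plates. It was found in 17.6%, 25.6% and 20.8% of *en1a*-negative fibroblasts, so that all 94 *pax9* fibroblasts were *en1a*-negative.

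In CPM, *pax9* stood at 0.405, 0.437 and 4.21 in *en1a*-positive and at 79.2, 132.5 and 129.7 in *en1a*-negative fibroblasts, and the plates of the 2 groups did not overlap. The log2 ratio was -5.83, -6.54 and -4.65, with a mean of -5.67 ± 0.955 (SD over 3 plates). It was called lower, as were 5.28% of 18529 genes, and it was called lower under every alternative run, with means between -6.19 and -4.16.

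*meox1* had 1800, 1441 and 1289 CPM in *en1a*-positive and 359.5, 162.1 and 604 CPM in *en1a*-negative fibroblasts, again without overlap. It was found in 40 of 42, 54 of 56 and 71 of 76 of the former and in 38.8%, 23.1% and 58.01% of the latter. The log2 ratio was 2.32, 3.14 and 1.09, with a mean of 2.19 ± 1.03 (SD over 3 plates), and *meox1* was called higher, as were 1.49% of genes. The pdgfra plate had the smallest ratio, and with gates at 10 counts it fell to 0.60 there and the call was lost.

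The other members were not called. *twist1a* had 1018, 1208 and 803 CPM against 470, 549 and 761 CPM, a log2 ratio of 1.11 and 1.14 on the vegfc plates and of 0.08 on the pdgfra plate. *twist1b* had 142.7, 191.2 and 111.6 CPM against 239.3, 309.7 and 181.4 CPM. Its log2 ratios of -0.74, -0.69 and -0.70 had a narrow spread (SD 0.027 over 3 plates). The paralogues therefore differed in opposite directions on the vegfc plates, though the difference between them was not tested. On vegfc plate 1 the fibroblast gate held 42 of 60 *en1a*-positive cells, while the relative gates held all 60. *twist1b* stood at 200 CPM in these 60 cells, so that its narrow spread holds for the gates at 20 counts. *nkx3.2* had ratios of -0.19, -1.98 and 0.38 and was found in 6 of 42, 3 of 56 and 2 of 76 *en1a*-positive fibroblasts.

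PAX1-I differed from *pax9* in direction on vegfc plate 2 only. There PAX1-I was found in 6 of 56 *en1a*-positive fibroblasts, at 60.8 CPM (56.7 to 65.03) against 37.1 CPM (35.2 to 39) in *en1a*-negative ones, where *pax9* was at 0.437 and 132.5 CPM. A single cell supplied 30.2% of the PAX1-I counts of these *en1a*-positive fibroblasts, so that the intervals, which cover counting error only, do not measure the spread between cells. On the other plates it was lower in *en1a*-positive fibroblasts, at 0.405 and 6.83 CPM against 24.3 and 26.03 CPM, and without vegfc plate 2 it was called lower. PAX1-II had log2 ratios of -2.82, -3.72 and -0.20 and was called lower without the pdgfra plate, with gates at 50 counts and with the relative gates. Without the pdgfra plate *twist1a* was called higher as well, which made 4 called members there against 2 on all plates. More of all genes were called without single plates too, with the range of the shares given in the last section.

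*en1a*-positive fibroblasts were sequenced less deeply, with median gene counts of 238316, 236244 and 255586 against 306894, 325043 and 280923. After thinning every cell to 50000 gene counts, with found then meaning 2 or more counts, *pax9* was found in 0 of 42, 0 of 56 and 1 of 76 *en1a*-positive fibroblasts and in 20%, 25.6% and 24.2% of the *en1a*-negative ones. *meox1* was then found in 97.6%, 96.4% and 97.4% of *en1a*-positive and in 57.6%, 23.97% and 80.95% of *en1a*-negative fibroblasts. The split was as sharp at equal depth for *pax9*, and for *meox1* it was narrow in the share of cells on the pdgfra plate.

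Cells near the *en1a* threshold were mostly on the pdgfra plate, where 27 lay just below it beside 76 positive ones. Of these 27 fibroblasts of the pdgfra plate with 10 to 19 *en1a* counts, *pax9* was found in 7 and *meox1* in 13, and of 3 with 20 to 39 counts *pax9* was found in 0 and *meox1* in 2. Vegfc plate 1 had 2 fibroblasts with 10 to 19 counts, with *pax9* in 0 of them, and vegfc plate 2 had none between 10 and 39.

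**Figure D2:**
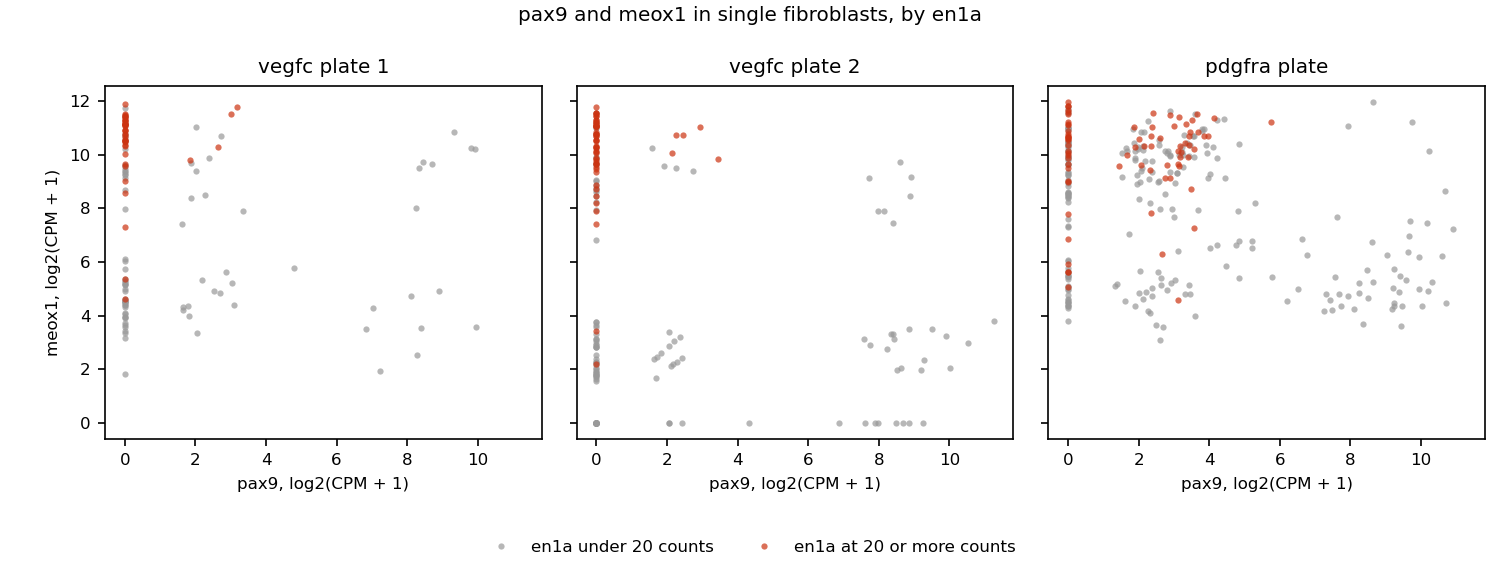
Level of *meox1* (vertical axis) against *pax9* (horizontal axis) in each fibroblast as log2(CPM + 1), 1 panel per plate, with *en1a*-positive cells marked apart from *en1a*-negative ones. All 94 cells with 20 or more *pax9* counts are *en1a*-negative, and *en1a*-positive cells gather at high *meox1* and *pax9* near 0.

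*pax7a* and *pax7b*, paired box genes of the dermomyotome and of muscle and pigment precursors, divided the *en1a*-negative fibroblasts further. Of the 91 that were *pax7*-positive, *pax9* was found in 0, which allows a share of up to 3.3%, and *meox1* in 87, at 1540, 1007 and 1006 CPM. The first 2 of these plates held only 7 and 4 such cells. Of the fibroblasts with neither *en1a* nor *pax7*, *pax9* was found in 94 (27.2%) and *meox1* in 31.2%, at 260.6, 134.4 and 385 CPM. *pax7*-negative, *en1a*-positive fibroblasts had *meox1* at 1622, 1149 and 1215 CPM. High *meox1* and absent *pax9* were therefore seen with either *en1a* or *pax7*, and all *pax9* fibroblasts had neither.

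Lists of related genes were compared in the same way. Of 28 somite and mesenchyme regulators 18 were matched, and 4 were called higher and 6 lower in *en1a*-positive fibroblasts, beside 1.49% and 5.28% of all genes, with a median mean log2 ratio of -0.36 beside -0.27 over all genes. The 4 higher genes were the paired box genes *pax3a*, *pax3b* and *pax7a* and the *meox1* relative *meox2b*, which had log2 ratios of 3.16, 5.29 and 1.41. The 6 lower ones were *foxc1b*, *tbx18*, *sox5*, *sox6*, *six1b* and *eya1*. *sox5* and *sox6*, which act with Sox9 in cartilage in mouse, had log2 ratios of -2.29, -1.05 and -1.70 and of -2.00, -4.82 and -2.85.

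Of 6 Hedgehog response genes 5 were matched and 2 were called higher, 0 lower, beside the same shares of all genes, with a list median of 1.17. The effector gene *gli1* had log2 ratios of 1.18, 1.10 and 1.23, and *hhip*, whose product binds Hedgehog ligands, of 2.59, 2.55 and 4.30. The receptor gene *ptch1* had 2.21, -0.02 and 1.02 and was not called. *pax9*, a gene of the Hedgehog-induced sclerotome, thus had its low level in the fibroblasts with more *gli1* and *hhip*.

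Of 8 chondrogenic and tendon genes 5 were matched, 0 were called higher and 3 lower, beside 5.28% of all genes called lower. *matn4*, encoding a matrilin of extracellular matrix, had ratios of -4.71, -5.64 and -3.91, *cnmd*, encoding chondromodulin, of -2.81, -2.19 and -3.67, and *tnmd* of -3.01, -2.29 and -2.37. The cartilage genes *acana* and *matn1* were found in 0 fibroblasts of any plate.

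**Figure D3:**
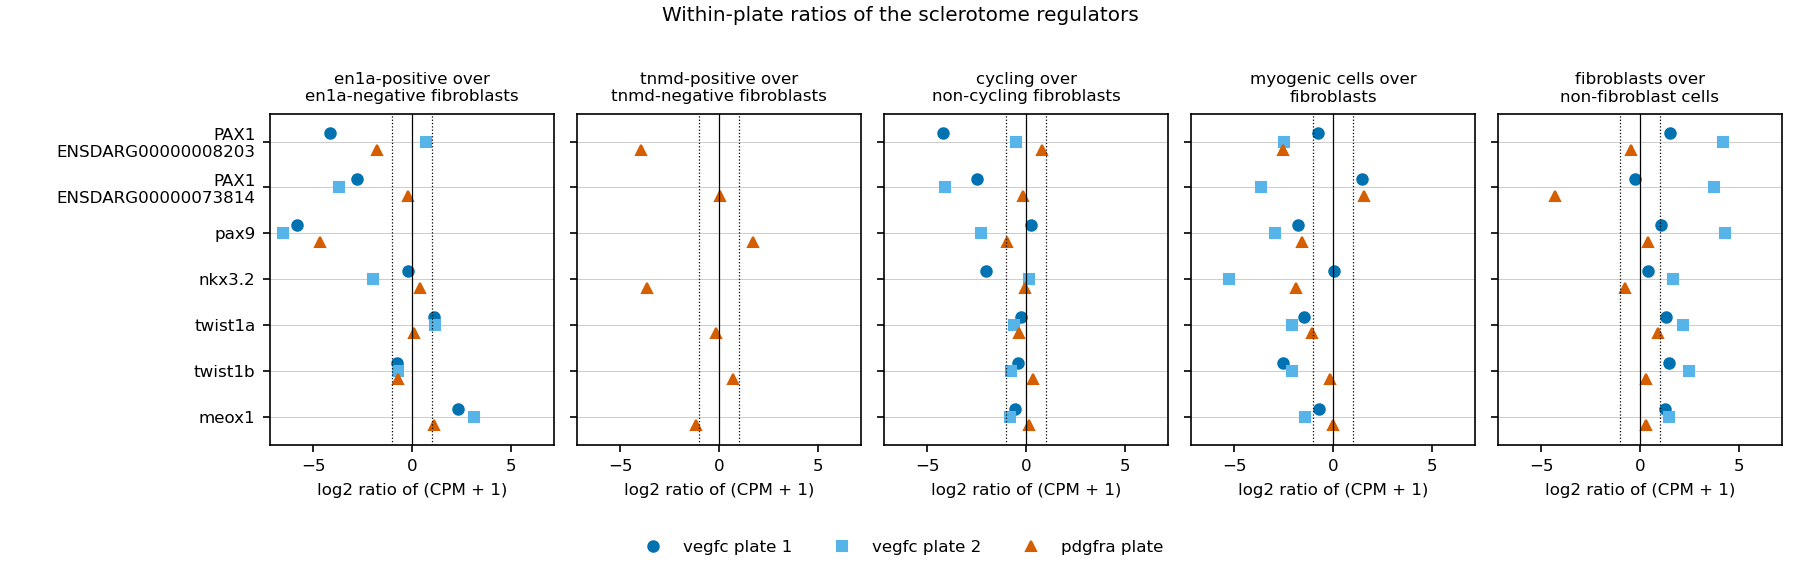
Log2 ratio of (CPM + 1) for each of the 7 identifiers in each comparison made within plates, 1 point per plate with a ratio. Points have the colours of the plates, and dotted lines lie at the fold of 1 on the log2 scale in both directions. The comparison by *tnmd* has points of the pdgfra plate only. In the comparison by *en1a*, the *pax9* points lie at -5.83, -6.54 and -4.65 and the *meox1* points at 2.32, 3.14 and 1.09.

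*tnmd* encodes tenomodulin, a marker of tendon cells, which derive from the sclerotome. It was found in 4, 3 and 40 fibroblasts, so that only the pdgfra plate had the 10 cells needed for a ratio, and no gene could be called over plates. *pax9* was higher there, being found in 18 of 40 *tnmd*-positive and 11.2% of *tnmd*-negative fibroblasts at 263.4 and 79.8 CPM, a log2 ratio of 1.71. In vegfc plate 2 it was found in 1 of 3 and in vegfc plate 1 in 0 of 4 *tnmd*-positive fibroblasts.

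*meox1* had the opposite direction, with 362.04 CPM against 810 CPM on the pdgfra plate, a log2 ratio of -1.16, and was found in 12 of 40 against 72.3% of cells. All but 1 of the *en1a*-positive fibroblasts of that plate were *tnmd*-negative, and these hold *meox1* at 1289 CPM with *pax9* found in 0. Their part in the ratios of *meox1* and *pax9* was not tested. *nkx3.2* and PAX1-I were each found in 0 of 40 *tnmd*-positive fibroblasts, which allows a share of up to 7.5%, and each in 10 others (3.75%), so that this depth of cells does not show a difference in share. Their levels were 0.581 against 18.5 CPM and 0.678 against 24.6 CPM, log2 ratios of -3.63 and -3.93. *twist1b* had 250.4 against 154.4 CPM, a log2 ratio of 0.69, and *twist1a* 692 against 781 CPM, a log2 ratio of -0.18. Of the 7 identifiers 1 lay above a log2 ratio of 1 and 3 below -1, on 1 plate without replicate, beside 8.65% of the 18529 genes above and 22.6% below. With gates at 10 counts, PAX1-I and *meox1* fell to -0.05 and -0.74.

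Cycling fibroblasts, in which 2 or more of *mki67*, *cdk1*, *top2a* and *ccna2* were found, numbered 20, 40 and 61. The members showed no common difference from the 490 non-cycling fibroblasts. *pax9* stood at 65.7, 26 and 58.2 CPM in cycling and at 55.6, 127.9 and 115.9 CPM in non-cycling fibroblasts, with log2 ratios of 0.24, -2.26 and -0.98. *meox1* stood at 540, 318.2 and 820 CPM against 807, 551 and 737 CPM, and *twist1a* had log2 ratios of -0.24, -0.61 and -0.33. For *pax9* and *meox1* the plates of the 2 groups overlapped.

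By the rule above 0 of 7 identifiers were called, against 2.96% of genes called higher and 2.71% called lower. PAX1-II was found in 0 cycling fibroblasts (19.8% of all), which allows a share of up to 2.48%, and in 6 of 490 others (1.22%), so that a difference was not detectable at this number of cells. It was called lower without the pdgfra plate, with gates at 50 counts and with the relative gates. Cycling fibroblasts were deeper, with a median of 356699 gene counts against 263757, and thinning left the count at 0.

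Cells in the myogenic gate, with *myod1*, *myog* or a set of muscle structural genes, numbered 39, 32 and 26. *pax9* stood at 15.9, 12.2 and 34.1 CPM in them and *twist1a* at 220, 166.8 and 367.6 CPM, all below the fibroblasts of every plate. Their log2 ratios to fibroblasts were -1.79, -2.92 and -1.55 and -1.49, -2.10 and -1.07, so that these 2 members were called lower, as were 3.69% of genes. None of the 7 was called higher, against 3.45% of genes. *meox1*, which is also a gene of the muscle-forming part of the somite, stood at 462, 183.9 and 758 CPM in myogenic cells and overlapped with its fibroblast levels.

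The myogenic gate was also loose, since 67 of its 97 cells held 3 or more fibroblast markers. The result followed the gates: with gates at 10 counts 0 members were called, with gates at 50 counts or the relative gates 5 were, all lower. Under the relative gates *twist1b* had log2 ratios of -4.48, -2.69 and -1.36. Without vegfc plate 1, 4 members were called. The share of all genes called lower also changed with these settings. It is given in the last section, for runs without single plates only as a range.

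Between lines, the fibroblasts of the pdgfra plate were set against those of each vegfc plate. *nkx3.2* was lower on the pdgfra plate, by log2 ratios of -1.79 and -1.63, and PAX1-II by -2.47 and -3.63. These 2 were called lower, as were 7.13% of genes, and none was called higher, against 5.01%. *pax9* had 0.81 and 0.04, *twist1a* 0.31 and 0.11, *twist1b* -0.36 and -0.75, *meox1* 0.01 and 0.64 and PAX1-I 0.28 and -0.96. The call of *nkx3.2* was lost with gates at 50 counts and with the relative gates, where its mean was -0.81, and that of PAX1-II with gates at 10 and at 50 counts.

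The 3 plates also differed in which fibroblasts they held. Fin fold fibroblasts, with 2 or more of the actinodin genes *and1*, *and2* and *and3*, made up 17.3%, 6.21% and 95.1% of the fibroblasts. This gate was loose as well, since *and1* reached 20 counts in 95.9% of all cells of the pdgfra plate, and under the relative gates the shares were 1.23%, 1.48% and 19.7%. By the gates at 20 counts *foxf2a*-positive fibroblasts numbered 11, 21 and 0. The part of this composition in the differences between lines was not tested. Of the lists, *twist3*, *uncx4.1*, *tbx15*, *pax7a*, *pax7b* and *tnmd* were called higher on the pdgfra plate, and *meox2b*, *gli1* and *hhip* lower.

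*nkx3.2* was also seen in cells with little *pax9*. It was found in 3 of 11 and 6 of 21 *foxf2a*-positive fibroblasts, at 47.8 CPM (41.3 to 55.05) and 172.9 CPM (164.2 to 181.98), a kind in which *pax9* stood at 1.48 and 0.353 CPM, PAX1-I at 0.493 and 0 CPM, and *meox1* at 58.7 and 15.5 CPM. *foxf2a* is a forkhead gene expressed in mesenchyme. Under the relative gates only 2 and 1 *foxf2a*-positive fibroblasts were left, with 0 *nkx3.2* counts, so that this level rests on the loose gates. In 51 cells of the epithelial gate of vegfc plate 1, *nkx3.2* was found in 11 at 59.2 CPM, and it was found in 10 of the 40 that remained under the relative gates, at 69.05 CPM. Other kinds on that plate had like levels, with 59.1 CPM in fibroblasts, 61.3 CPM in myogenic cells, 48.7 CPM in the myeloid gate and 74.03 CPM in 6 hypochord cells, of which the myogenic and myeloid ones stood at 21.5 and 3.03 CPM under the relative gates. The 12 epithelial cells of vegfc plate 2 held 1 with *nkx3.2*. In fibroblasts with *jam2b* and *podxl*, of which the vegfc plates held 10 each, the highest *nkx3.2* count was 2, and *pax9* stood at 1.95 and 0.793 CPM.

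Neural cells, 28 and 48 on the vegfc plates, served as another background. *pax9* stood at 1.03 and 0.596 CPM in them, PAX1-I at 0 and 0.0662 CPM and *nkx3.2* at 2.46 and 0.53 CPM. *meox1* stood at 84.1 and 70.9 CPM in neural cells, against 753 and 486 CPM in fibroblasts, and was found in 2 of 28 and 4 of 48. *twist1a* stood at 40.8 and 49.9 CPM, against 620 and 716 CPM in fibroblasts, and was found in 3 and 5 neural cells. Over all plates 29.5% of the cells of the neural gate held 3 or more fibroblast markers.

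Members were then counted together in single fibroblasts. Of 94 *pax9* fibroblasts, *meox1* was found in 24, a share of 25.5% (17.1 to 35.6), beside 64.99% of the 517 other fibroblasts. By plate it was found in 7 of 15, 7 of 31 and 10 of 48, beside 58.9%, 51.4% and 75.3% of the others. The direction was the same on the 3 plates, and the interval of vegfc plate 1, from 21.3% to 73.4%, holds the share of the others. Much of this gap lay with the *en1a*- and *pax7*-positive cells, which hold *meox1* and no *pax9*. Among fibroblasts with neither gene, *meox1* was found in 33.3% of those without *pax9*, and in 31.7%, 20.9% and 44.7% of them by plate. Set against the *pax9* cells, this share was lower on the vegfc plates and higher on the pdgfra plate, so that the plates did not share a direction. On the pdgfra plate the *pax9* cells had 20.8% (10.5 to 35), an interval over cells of 1 plate. The share among *pax9* fibroblasts was 44.8% with members found at 10 counts, 52.4% after thinning and 95.99% at 1 count, where nearly every cell holds *meox1*.

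*twist1b* was found in 72 of the 94 *pax9* fibroblasts, 76.6% (66.7 to 84.7), beside 43.3% of the others, and in 10 of 15, 28 of 31 and 34 of 48 by plate. Among fibroblasts with neither *en1a* nor *pax7*, the others held it in 44.4%, and in 55.6%, 45.3% and 36.9% by plate, each below the share of *pax9* cells. The interval of *pax9* cells on vegfc plate 1, from 38.4% to 88.2%, holds the share of the others there. *twist1a* was found in 79 of 94 (84.04%), beside 75.6% of the others and 66.3% of those with neither gene. The paralogues themselves showed little relation: of 470 *twist1a* fibroblasts 50% held *twist1b*, beside 43.3% of the others.

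*pax9* and *nkx3.2* were found together in 7 cells, which is 7.45% of the *pax9* and 17.5% of the *nkx3.2* fibroblasts, beside 6.38% and 15.2% in the rest. By plate *nkx3.2* was found in 4 of 15, 3 of 31 and 0 of 48 *pax9* fibroblasts. Fibroblasts with none of *pax9*, *en1a* and *pax7* held it in 6.35%, 11.6% and 5.83%, so that the plates did not share a direction. PAX1-I and *pax9* shared 9 cells, 31.03% (15.3 to 50.8) of the 29 PAX1-I fibroblasts and 9.57% of the *pax9* ones. Beside these, *pax9* was found in 15.4% of all fibroblasts, and PAX1-I in 5.16% of those with none of *pax9*, *en1a* and *pax7*. On the pdgfra plate these PAX1-I shares were 6.25% with *pax9* and 5.83% with none of these genes. Of the 6 fibroblasts with PAX1-II, all on the vegfc plates, 5 held *pax9* and 5 held *nkx3.2*, which were found in 15.4% and 6.55% of all fibroblasts. *nkx3.2* fibroblasts held *twist1a* in 60% beside 78.1% of the rest, *twist1b* in 30% beside 49.7%, and *meox1* in 62.5% beside 58.7%. These numbers are descriptions of single cells from 3 plates and carry no test.

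**Figure D4:**
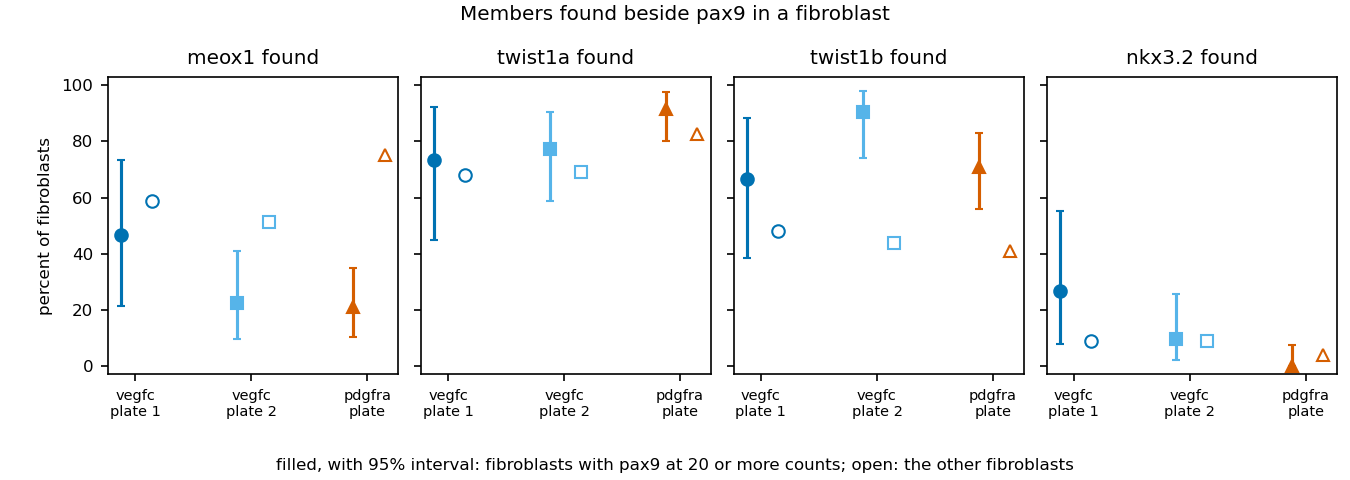
Percent of *pax9* fibroblasts in which *meox1*, *twist1a*, *twist1b* or *nkx3.2* was found, by plate, each member at 20 or more counts. Filled points with exact intervals are *pax9* fibroblasts, and open points are other fibroblasts. On vegfc plate 1, vegfc plate 2 and the pdgfra plate, *meox1* was found in 46.7%, 22.6% and 20.8% of *pax9* fibroblasts. *twist1b* was found in 66.7%, 90.3% and 70.8% of them.

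The genes most like each member were sought over fibroblasts, by the lowest of the 3 within-plate Pearson correlations of log2(counts per 500000 + 1), among 6781 genes found in 5% or more of the fibroblasts of every plate. The points of a plate share a sort and a library preparation, and the correlations are descriptions over the fibroblasts of each plate. *meox1* had the closest companions: *seraf* at 0.78, 0.76 and 0.83, *fgl1* at 0.65, 0.73 and 0.62, CILP, which encodes a cartilage matrix protein, at 0.55, 0.64 and 0.69, ENSDARG00000097466 at 0.57, 0.53 and 0.56, and COL1A1 (ENSDARG00000035809), a fibrillar collagen gene, at 0.52, 0.55 and 0.63.

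*pax9* was most like MATN4, the *matn4* gene above, at 0.42, 0.40 and 0.49, followed by *vcanb*, encoding a versican proteoglycan, at 0.44, 0.44 and 0.36, RBPJL at 0.44, 0.36 and 0.42, and *vap* at 0.31, 0.35 and 0.37. Its correlation with *meox1* was -0.13, -0.24 and -0.34. This was taken over all fibroblasts, with the *en1a*- and *pax7*-positive cells that hold *meox1* and no *pax9*. Among fibroblasts with neither gene, the plates did not share a direction in the share of cells with *meox1*, as given above. The other 2 members that could be entered had weaker companions. For *twist1a* the first were *si:dkey-31n5.4* at 0.41, 0.29 and 0.23 and *col1a1a*, itself a gate gene, at 0.43, 0.36 and 0.22. For *twist1b* the first was TMEFF2 at 0.30, 0.30 and 0.23. *twist1a* and *twist1b* correlated at 0.02, 0.04 and 0.01, and *twist1a* and *meox1* at 0.32, 0.31 and -0.16, the sign changing on the pdgfra plate.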

How the data were processed

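The authors aligned Smart-seq2 reads to GRCz11 with spike-ins using TopHat2 and Bowtie2, counted them per gene with featureCounts, filtered cells by counts, genes and spike-in share, and deposited raw counts of 32151 rows (32057 genes, 92 spike-ins and 2 reporters). Only the rows of genes entered the totals used here. Plates held 367, 377 and 365 cells, of which 127, 177 and 307 were fibroblasts (42, 56 and 76 with *en1a* and 85, 121 and 231 without). Members and lists were chosen with earlier results of these data known. Gene names came from NCBI and RefSeq tables, of another genome build, so that no coordinates or sequences are given. Counts were summed by kind and plate, scaled to CPM and compared as log2 ratios of (CPM + 1), with 10 or more cells on both sides. Genes needed 300 counts and 3 cells (18529 genes, all 7 members' identifiers included). Since a plate is 1 sample, no test was run.

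All 7 members are named, and like genes are among the 5 first by correlation, of which 1 is not reported here. From the lists every matched gene was counted. Alternatives were gates at 10 and 50 counts, a pseudocount of 5 CPM, mean single-cell CPM, TMM factors (edgeR 4.0.16, R 4.3.3), gates of 2 or 4 fibroblast markers, thinning to 50000 counts, no filter, leaving out each plate, and, chosen after seeing the data, relative gates. Doublets were not called again. The scripts (Python 3.11.15, numpy 2.4.6, pandas 2.3.3, scipy 1.17.1) were tested on simulated data.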

Additional observations from a re-analysis of the deposited data

Results flagged for a closer look

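For 7 results the pdgfra plate had a log2 ratio opposite in sign to that of both vegfc plates. The difference between the plates was not tested. In fibroblasts against non-fibroblast cells, PAX1-I had -0.43 and *nkx3.2* -0.78 on the pdgfra plate. In *en1a*-positive against *en1a*-negative fibroblasts, *nkx3.2* had 0.38. In cycling against non-cycling fibroblasts, PAX1-I had 0.83, *twist1b* 0.36 and *meox1* 0.15. In myogenic cells against fibroblasts, *meox1* had 0.0026.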

How the results depend on the processing

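Counts of members and shares of genes past the fold depended on the gates, the pseudocount and the plates. For fibroblasts against non-fibroblast cells, gates at 10 counts gave 0.394% of genes higher and gates at 50 gave 3.19% and 3 members. A pseudocount of 5 CPM gave 0.41% higher and 4.67% lower. Mean single-cell CPM, TMM factors and thinning each gave 1 member, TMM with 2.16% of genes higher, a scaling that moved the median of all genes from -0.20 to 0.06. Relative gates gave 2 members and 1.67%. Without single plates the members ranged from 0 to 5, genes higher from 1.82% to 4.18% and lower from 10.2% to 18.96%. For *en1a*, gates at 10 gave 1 member and 2.82% of genes lower, and a pseudocount of 5 gave 2.47%. Without single plates members ranged from 2 to 4, genes higher from 2.56% to 3.8% and lower from 8.59% to 13.5%. For *tnmd*, gates at 10 gave 2 members, and the share of all genes was not computed under the alternatives. For cycling, gates at 50 and relative gates each gave 1 member and a pseudocount of 5 gave 0.772% of genes lower. Without single plates members ranged from 0 to 1, genes higher from 4.25% to 5.46% and lower from 5.55% to 7.23%. For myogenic cells, gates at 10 gave 0 members and 1.87% of genes lower, gates at 50 gave 5 and 7.68%, relative gates 5 and 7.93%, and a pseudocount of 5 gave 2.23% higher and 1.58% lower. Without single plates members ranged from 3 to 4, genes higher from 5.39% to 9.43% and lower from 6.23% to 9.27%. Between lines, gates at 10 gave 1 member, gates at 50 gave 0, relative gates 1, and a pseudocount of 5 gave 2.36% higher and 3.21% lower. Where no share of genes is printed beside a count of members, that count is not set against all genes. PAX1-II, in few cells, changed direction: its mean log2 ratio in fibroblasts against other cells was -0.26 and became 2.43 with gates at 50 and 2.18 with relative gates, for *tnmd* 0.03 became -2.28 and -2.30, and for myogenic cells -0.20 became -1.08 to 1.52 without single plates. Fibroblasts with 1 or more members were 99.8% at 1 count. *pax9* fibroblasts with *meox1* were 95.99% at 1 count, 44.8% at 10 and 52.4% after thinning, and with *twist1b* 91.6% at 1 count. *twist1a* fibroblasts with *twist1b* were 86.8% at 1 count, 39.6% at 50 and 55.1% after thinning. The causes were not tested. Ratios were taken within each plate, except between lines. No paired analysis was possible because replicate numbers only name single cells and no test was run.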
